A study of Mus musculus with 16 samples.

Results

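The proteasome genes of the mouse are those whose symbols begin with Psma, Psmb, Psmc, Psmd, Psme, Psmf or Psmg followed by a digit, and every such symbol in the deposited table of all genes was taken. The table listed 49 of them among 25905 genes. They fell into the alpha ring (7 genes), the beta ring (7), the immunoproteasome (3), tissue-restricted forms of the core (2), the ATPases of the base (6), the other base subunits (3), the lid (8), the chaperones of the base (3), the assembly factors of the core (4), the activators (4) and 1 inhibitor. The remaining gene, Psmc3ip, carries the prefix but encodes a meiotic recombination factor and no subunit.

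The proteasome is the protease that degrades proteins marked with ubiquitin chains. Its core is a barrel of alpha rings, which gate the entry, and beta rings, which hold the chymotrypsin-like, caspase-like and trypsin-like active sites. A regulatory particle caps the barrel: its lid removes the ubiquitin chain, and the ATPases of its base unfold the substrate and feed it into the core. Interferon gamma induces the immunoproteasome subunits, which take the place of the constitutive catalytic subunits and change the peptides that are made. Photoreceptors renew their outer segments throughout life, and their proteasomes are known to come under load when mutant or unassembled phototransduction proteins build up.

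The samples were right-eye retinas of 16 wild type male C57BL/6 mice, labelled 10 weeks old, of which 8 had been flown in space (Spaceflight) and 8 had been kept on the ground in flight housing (Ground control). Stranded libraries were sequenced from total RNA, 1 library for each retina. The labelled age is the age at launch in the study's account, and the flight lasted several weeks and the eyes were taken after the return to Earth, so the mice were older at dissection. The level of a gene is the authors' mean normalized count, which is the mean over all 16 libraries of the counts divided by a size factor for each library. That mean pools the Spaceflight and Ground control libraries and was deposited without a spread, so no SD, no value for a single retina and no difference between the groups is given, and the depth of each library was not analysed here.

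Because a long transcript yields more reads than a short one, the parts and their members were set against each other as the mean normalized count per kilobase of the longest reference transcript, written here as per kb. Undivided counts are given for each gene and for the counts of genes below 10, and an order of undivided counts also reflects length. All 49 genes had a reference length. In bulk tissue a low level in few cells and a lower level in all cells cannot be told apart. Neighbouring genes in an order of levels cannot be shown to differ, since no spread is known. The order of the members of a part can also change when the coding sequence is used as the length.

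Most genes that mark retinal cells were abundant. The mean normalized count was 154477 for Gnat1 (rod transducin), 2800 for Opn1sw (short-wavelength cone opsin), 964 for Grm6 (glutamate receptor of ON bipolar cells) and 17455 for Glul (glutamine synthetase of Müller glia). Other retinal markers were low, with 47.7 for Lhx1 of horizontal cells, 5.53 for Rbpms of ganglion cells and 1.39 for Rlbp1 of Müller glia. The other ganglion cell marker, Thy1, was at 1730, and the amacrine cell markers Gad1 and Slc6a9 were at 2415 and 1725. Markers of other cells ran from 898 for Cryaa and 288 for Cryba1 of the lens, 121 for Rpe65 and 2.72 for Best1 of the pigment epithelium, to 51.1 for Cldn5 and 0.446 for Pecam1 of endothelium and 10.7 for Hbb-b1 of red blood cells. The immune markers are given with the immunoproteasome. Of the 27 markers listed, 5 have more than 1 transcript identifier in the count table, and 4 of these, Rlbp1, Rbpms, Pecam1 and Ptprc, were below 10 (5.53 or less). Over all genes, the median was 6.98.

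The next sequences belong to a pattern that runs through the proteasome genes and is described with its values further on. The deposited count table holds 1 row for each transcript identifier, and 4 of the proteasome genes, Psmd2, Psmd10, Psme2 and Psmg4, have 2 identifiers each. A read is 75 bases long, and a stretch of that length which occurs in both transcripts of a gene cannot say which of them it came from. For the 3 of these genes whose transcripts could be compared, the first such stretch of the longest open reading frame is printed, 5′ to 3′, from base 1 to 75 of the frame for Psmd10 and Psmg4. For Psme2 it is the first that also occurs in the gene Psme2b, from base 48 to 122. All of it is shared, so no base is in capitals.
Psmd10: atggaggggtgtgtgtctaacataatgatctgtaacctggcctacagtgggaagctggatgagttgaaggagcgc
Psme2: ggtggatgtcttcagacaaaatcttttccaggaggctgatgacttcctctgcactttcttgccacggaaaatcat
Psmg4: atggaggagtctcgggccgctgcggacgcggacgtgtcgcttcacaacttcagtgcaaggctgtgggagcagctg
Psmd10 is a chaperone of the base also known as gankyrin, Psme2 a subunit of the interferon-inducible activator, and Psmg4 an assembly factor of the core. Of the read-length stretches of Psme2, 51.7% occur in other genes.

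The subunits of the proteasome itself were all at a moderate to high level apart from 1. Of the 31 genes of the core, the base and the lid, 30 had a mean normalized count of at least 10, and the exception was Psmd2. These 30 genes, each with 1 transcript identifier, had a median of 337 per kb, with the middle of the distribution (quartiles) at 241 to 431 per kb. The lowest, Psmd13 at 112 per kb, and the highest, Psmb6 at 744 per kb, were 6.65-fold apart, and 27 of the 30 lay within 2-fold of the median. For comparison, the 11725 genes of the table with a mean normalized count of at least 10 and a reference length had a median of 57.5 per kb, and 0 of the 30 subunits lay below it. Together the 49 genes took up 0.300% of the summed mean normalized counts of the table, 20980 of 6995811.

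**Figure D1:**
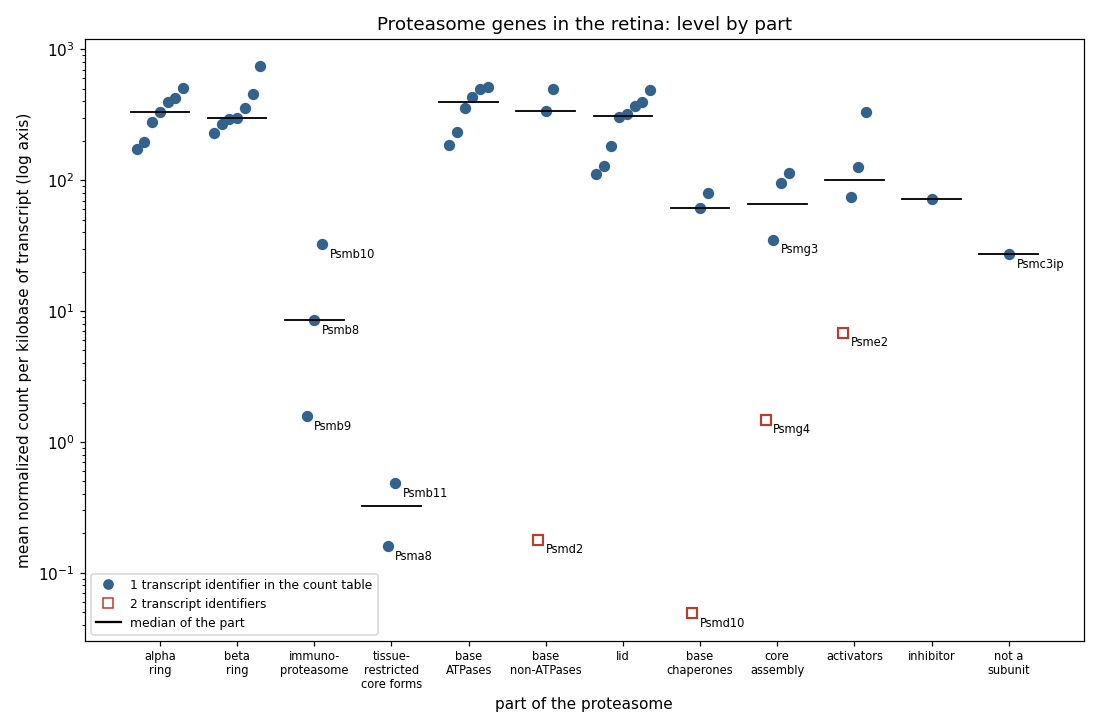
Level of each of the 49 genes as mean normalized count per kilobase of the longest reference transcript (vertical log axis), grouped by part of the proteasome (horizontal axis). Each point is a gene, filled circles have 1 transcript identifier and open squares have 2, and the black line is the median of the part. Core, base and lid lie between 112 and 744 per kb except Psmd2, the immunoproteasome between 1.57 and 32.4, and the open squares below 7 per kb.

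In the alpha ring, which forms the gate of the core, all 7 constitutive genes had a mean normalized count between 242 and 969. Per kb they ran from 174 for Psma3 to 503 for Psma4, 2.89-fold apart, with a median of 333. In descending order they were Psma4 at 503, Psma1 at 426, Psma6 at 399, Psma2 at 333, Psma7 at 279, Psma5 at 195 and Psma3 at 174 per kb. The highest count, 969 for Psma2, was thus not the highest level per kb of the longest transcript. This order depended on the length used. Per kb of coding sequence Psma2 was the highest of the ring at 1380 and Psma4 stood at 748. Psma3 was then at 646, and Psma5 was the lowest at 334. Some of these values are less certain because part of the sequence also occurs in other annotated genes, on either strand. Such genes can include ones that overlap at the same place. Of the 75-base stretches of the longest transcript, 39.8% for Psma5, 21.3% for Psma3 and 16.7% for Psma4 also occur in other annotated genes, against 0% for Psma1, Psma6 and Psma7.

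The beta ring, which holds the active sites, spanned a similar range. Its 7 constitutive genes had mean normalized counts of 321 to 764 and a median of 300 per kb. Psmb6, the caspase-like subunit, was the highest at 744 per kb and also the highest of all 49 genes. It was followed by Psmb2 at 457 and Psmb5, the chymotrypsin-like subunit, at 358 per kb. The structural subunits Psmb4 at 300 and Psmb1 at 296 came next, then Psmb7, the trypsin-like subunit, at 268, and Psmb3 at 231 per kb. This order also depended on the length used. Per kb of coding sequence Psmb6 was at 1006, still the highest of the ring but below Psma2 at 1380 and Psme3 at 1167. Psmb7 came next in the ring at 920, and Psmb5 was the lowest at 406. Psmb5 is uncertain, as 40.0% of its stretches of read length also occur in other annotated genes and 12.1% of its exonic bases are overlapped by a microRNA gene on the same strand.

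The immunoproteasome subunits stood far below the constitutive subunits they replace. Psmb10 had a mean normalized count of 42.5, Psmb8 of 16.2 and Psmb9 of 4.52, which is 32.4, 8.48 and 1.57 per kb. Per kb, Psmb8 reached 2.37% of Psmb5, its chymotrypsin-like partner. Psmb9 reached 0.211% of Psmb6, its caspase-like partner. Psmb10 reached 12.1% of Psmb7, its trypsin-like partner. All 3 values depended on the length used: per kb of coding sequence Psmb8 reached 4.81% of Psmb5, Psmb9 0.684% of Psmb6 and Psmb10 5.64% of Psmb7. Taken as sums over the 3 sites, the immunoproteasome subunits came to 3.10% of the constitutive ones per kb and to 3.36% per kb of coding sequence. Immune cells carry these subunits, and the 4 immune markers had mean normalized counts of 39.0 for Cx3cr1, 16.9 for Cd68, 4.08 for Aif1 and 0.228 for Ptprc, which has 2 identifiers. The part of such cells in the level of Psmb8, Psmb9 and Psmb10 was not tested.

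**Figure D2:**
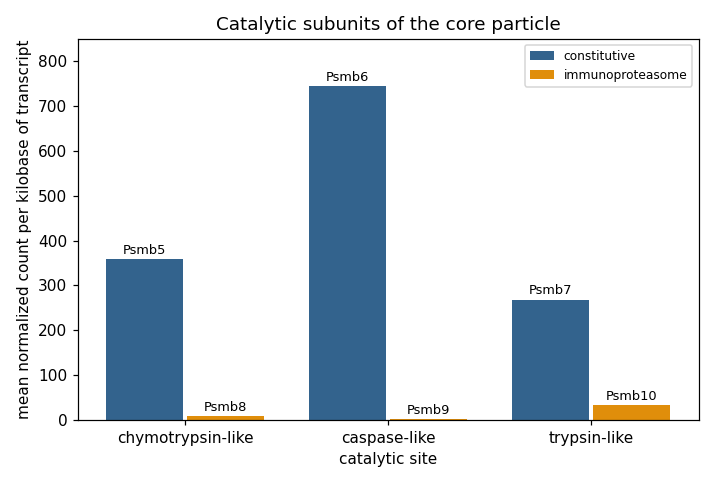
Mean normalized count per kilobase of the longest reference transcript (vertical axis) of the catalytic subunits, by active site (horizontal axis), with the constitutive subunit in blue and its immunoproteasome counterpart in orange. Psmb5, Psmb6 and Psmb7 stand at 358, 744 and 268 per kb, and Psmb8, Psmb9 and Psmb10 at 8.48, 1.57 and 32.4.

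The tissue-restricted forms of the core were near 0. Psmb11, the catalytic subunit of thymic cortical epithelium, had a mean normalized count of 2.05, and Psma8, the alpha subunit of male germ cells, one of 0.306. Psma8 per kb was 0.0573% of Psma7, the alpha subunit it resembles. Both have 1 transcript identifier, and 0.192% of the read-length stretches of Psmb11 and 0% of those of Psma8 occur in other genes.

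The ATPases of the base, which unfold the substrate, had a median of 393 per kb. All 6 had mean normalized counts of 436 to 898 and they ran from 187 to 516 per kb, 2.76-fold apart. Psmc1 at 516 and Psmc3 at 494 per kb led, followed by Psmc5 at 432 and Psmc6 at 354, and Psmc4 at 232 and Psmc2 at 187 were lowest. For Psmc3, 11.8% of the exonic bases are overlapped by a gene on the other strand. Psmd1, the large scaffold of the base, had the highest mean normalized count of all 49 genes, 1549, which was 498 per kb, with 9.67% of its exonic bases overlapped by another gene on the same strand. The ubiquitin receptor Psmd4 had 722, or 340 per kb.

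Psmd2, the scaffold that sits beside Psmd1 in every regulatory particle, was listed at a mean normalized count of 0.538, or 0.179 per kb. It is the only constitutive subunit of the core, the base or the lid below 10 in this table. With it the base had a median of 354 per kb over 9 genes, and without it 393 over 8.

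The lid, which removes ubiquitin and holds the regulatory particle together, had 8 genes, all with mean normalized counts of 222 to 968. Its median was 310 per kb and its spread, 112 to 488 per kb or 4.37-fold, was wider than that of either ring. Psmd8 was highest at 488, then Psmd12 at 399 and Psmd7 at 368 per kb. Psmd7 pairs with Psmd14, the metalloprotease that cuts the ubiquitin chain from the substrate, which stood at 302 per kb. Psmd3 lay at 319 per kb, Psmd6 at 184 and Psmd11 at 128. The lowest was Psmd13 at 112 per kb, where 17.2% of the exonic bases are overlapped by Sirt3 on the other strand. Of its read-length stretches, 14.0% also occur in other annotated genes on either strand, and both shares can cover the same bases.

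The core, base and lid had medians of 317, 354 and 310 per kb, so that the base was at 1.12 and the lid at 0.980 of the core. Which of them came out higher depended on the length used: per kb of coding sequence the base fell to 0.836 of the core, and without division by length the lid rose to 1.14. Across the 30 subunits with 1 identifier, the mean normalized count went up with transcript length (Spearman's rank correlation 0.517) and the level per kb went down with it (rank correlation −0.344), which describes 30 genes measured in the same libraries. As another large complex of subunits needed together, the TRiC chaperonin, which folds actin and tubulin, had 8 genes with a median of 427 per kb and a range of 160 to 546.

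The assembly factors, which guide the rings and the base together and leave or are degraded afterwards, had lower medians than the subunits, though the ranges met, with Psmg1 at 114 per kb and the lid subunit Psmd13 at 112. The core assembly factors Psmg1, Psmg2 and Psmg3 had mean normalized counts of 119, 125 and 84.4, or 114, 96.0 and 35.1 per kb. Per kb of coding sequence their order was reversed, at 138, 158 and 231. Psmg3 then stood above the lid subunits Psmd6 at 219 and Psmd13 at 197. Psmg4, the partner of Psmg3, was listed at 0.823. The median of the 4 was 65.6 per kb, 0.207 of that of the core, and 96.0 per kb over the 3 with 1 identifier, 0.303 of the core. Among the chaperones of the base, Psmd9 stood at 79.5 and Psmd5 at 61.2 per kb, and Psmd10 was listed at a mean normalized count of 0.0699, the lowest of the 49 genes. The median of these 3 chaperones was 0.193 of that of the core per kb, but 0.457 without division by length and 0.513 with the median transcript length.

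The activators differed widely from each other. Psme3, which forms the nuclear activator, was the highest at a mean normalized count of 889 and 334 per kb, near the core median of 317 per kb. Per kb of coding sequence Psme3 stood at 1167, above the core median of 648. The interferon-inducible activator is built of Psme1 and Psme2 together. Psme1 had 252, or 127 per kb, while Psme2 was listed at 6.59, or 6.85 per kb. Psme4, a very large single-chain activator, had 482, or 74.3 per kb. Psmf1, an inhibitor of the core in the test tube, had 273, or 71.8 per kb. Psmc3ip, the recombination factor with the shared prefix, had 35.4 or 27.4 per kb, and 29.8% of its exonic bases are overlapped by Mlx on the other strand.

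In all, 42 of the 49 genes had a mean normalized count of at least 10 and 7 were below it. Of the 45 genes with 1 transcript identifier, 3 were below 10, namely Psmb9, Psmb11 and Psma8, and the median of the 45 was 423. Of the 4 genes with 2 identifiers, all 4 were below 10, with a median of 0.680. Their values were 0.0699 for Psmd10, 0.538 for Psmd2, 0.823 for Psmg4 and 6.59 for Psme2. Psmd1, which sits beside Psmd2, had 1549, Psmg3, the partner of Psmg4, had 84.4, and Psme1, the partner of Psme2, had 252. The ATPases, on which Psmd10 acts, had 436 to 898. The cause of the 4 low values was not tested.

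The same split ran through the whole table. Of the 22086 genes with 1 identifier, 48.3% had a mean normalized count below 10 and the median was 12.9. Of the 3794 genes with 2 or more, 75.4% were below 10 and the median was 0.806. Restricted to genes whose identifiers are all those of protein-coding messenger RNAs, the shares were 38.9% of 16959 genes and 71.1% of 2986 genes, with medians of 52.2 and 1.58.

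The share of low values was smaller where more of a gene's transcripts can be told apart. For 2801 genes with several identifiers, every stretch of 75 bases in the listed transcripts was counted as found in only 1 of them or in more. Where 0 to 10% of the stretches were found in only 1 transcript, 86.4% of 1403 genes had a mean normalized count below 10, with a median of 0.472. At 10 to 30% the share was 69.1% of 718 genes, at 30 to 60% it was 52.0% of 502, and at 60 to 100% it was 25.3% of 178, with a median of 82.6. For the proteasome genes, the share found in only 1 transcript was 9.96% for Psmd10 (266 of 2672 stretches), 20.2% for Psme2 (325 of 1609) and 26.0% for Psmg4 (229 of 881). Psmd10, with the smallest share, also had the lowest mean normalized count, 0.0699. Psmg4, with the largest share, had 0.823, below the 6.59 of Psme2, so the counts of the 3 did not follow the order of the shares. Of the stretches of Psme2, 51.7% also occur in other genes. The share found in only 1 transcript was not computed for Psmd2, whose second identifier has no counterpart in the reference used. The part of the counting per transcript in these 4 low values was not tested.

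**Figure D3:**
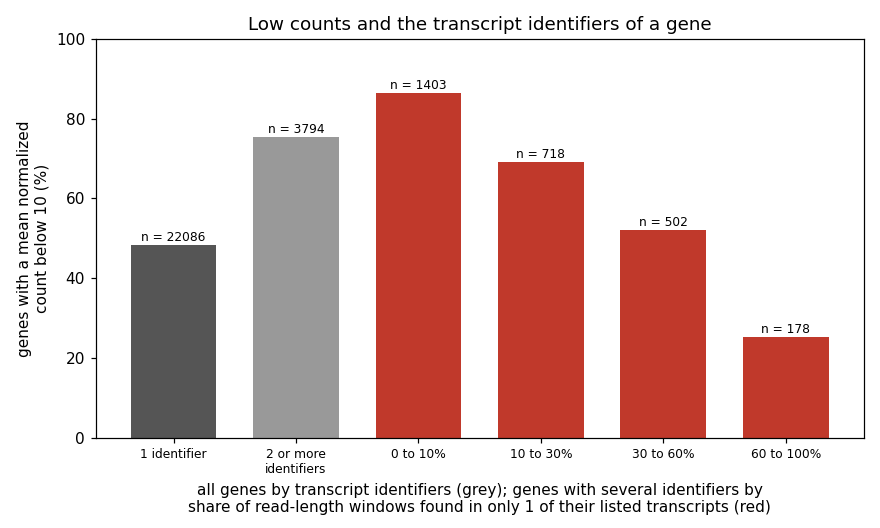
Share of genes with a mean normalized count below 10 (vertical axis, percent) for genes with 1 and with 2 or more transcript identifiers (grey bars), and for genes with several identifiers by the share of their 75-base stretches that occur in only 1 listed transcript (red bars), with the number of genes above each bar. The share is 48.3% with 1 identifier and 75.4% with more, and goes from 86.4% down to 25.3% as more of the stretches occur in only 1 transcript.

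Genes that work beside the proteasome showed the same split. Of 26 such genes listed, 25 were in the table, and all 18 with 1 identifier had a mean normalized count of at least 10. Of the 7 with 2 or more identifiers, 5 were below 10: Uchl5 and Usp14, the deubiquitinases bound to the regulatory particle, at 0 and 1.05, the ubiquitin fusion gene Rps27a at 0, the Vcp cofactor Ufd1l at 0.0517, and the shuttle Ubqln1 at 0.472. The other 2 were Uba1, the main activating enzyme of ubiquitin, at 109 with 2 identifiers, and Nfe2l1, at 73.1 with 6 identifiers.

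The levels of ubiquitin and its handling genes with 1 identifier varied. The polyubiquitin gene Ubb stood at 3888 per kb. The segregase Vcp, which pulls ubiquitinated proteins out of membranes and complexes, was at 804 per kb. Among the shuttles that carry substrates to the proteasome, Ubqln2 was at 822, Rad23b at 389 and Ubqln4 at 168 per kb. The receptor Adrm1 at 101 and the small lid subunit Shfm1 at 121 per kb stood below the median of 337 of the subunits above. Their undivided counts were 415 and 273, where the core had a median of 459. Other lengths were not compared for these pathway genes, so their place below the subunits may depend on the length used. Pomp, the maturation factor of the core, was at 130 per kb, above Psmg1, Psmg2 and Psmg3.

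Factors known to drive proteasome genes were also listed. Nfe2l1, which raises the expression of proteasome subunits when the proteasome is inhibited, has 6 identifiers and 15.7 per kb. Ddi2, the protease that activates it, was at 27.0 per kb, and the related factor Nfe2l2 of the oxidative stress response was at 122. Nfe2l1 and Nfe2l2 act through the antioxidant response element, so the promoters of the proteasome genes were searched for its core, and for the core of the interferon response element, the binding site of ETS factors and the CCAAT box.

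Promoter sequence, from 250 bases before to 50 bases after the start, was found in RefSeq (GRCm38.p6) for 41 of the 49 genes. All matches were counted on both strands, and none of the matches of different motifs overlapped. The 41 genes have 44 promoters. A gene was counted if any of its promoters matched, while the shares of all promoters and of coding promoters count single promoters. The ETS site (CCGGAAG) was in the promoters of 15 of the 41 genes, 36.6%, against 8.86% of all 32851 promoters and 11.6% of the 21263 promoters of coding genes. It was in 9 of 14 genes of the base and lid, in 1 of 11 genes of the constitutive core and in 2 of 3 core assembly factors. The CCAAT box was in 15 of the 41 genes, 36.6%, against 37.4% of all promoters. By part, it was in 5 of 7 genes of the alpha ring and 1 of 4 of the beta ring. It was also in 4 of 14 genes of the base and lid and in 0 of 3 core assembly factors. The antioxidant response core (TGACNNNGC) was in 6 genes, 14.6% against 12.4% of all promoters, namely Psmb5, Psmb6, Psmc6, Psmd12, Psmd9 and Psme4. The interferon response core (GAAANNGAA) was in 7 genes, 17.1% against 8.56%, and in 0 of the 3 immunoproteasome genes. The 15 genes with the ETS site and the 15 with the CCAAT box each include Psmc3ip, which is no subunit. These are matches of letters in this window and no measure of binding.

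The promoters of 3 genes are printed because each carries a match near the start: a catalytic subunit, its immunoproteasome counterpart and a lid subunit with the ETS site. Psmb6, the highest gene per kb, has the antioxidant response core 9 bases before the start (chr11:70525107-70525406, plus strand). Psmb9, its immunoproteasome counterpart, has a CCAAT box read on the other strand 8 bases before the start (chr17:34187281-34187580, minus strand). Psmd12 of the lid has the ETS site, also read on the other strand, 17 bases before the start (chr11:107479278-107479577, plus strand). Each is 300 bases of GRCm38.p6, 5′ to 3′ along the gene, with the match named here in capitals. Psmd12 also carries the antioxidant response core, which is left in lower case.
Psmb6: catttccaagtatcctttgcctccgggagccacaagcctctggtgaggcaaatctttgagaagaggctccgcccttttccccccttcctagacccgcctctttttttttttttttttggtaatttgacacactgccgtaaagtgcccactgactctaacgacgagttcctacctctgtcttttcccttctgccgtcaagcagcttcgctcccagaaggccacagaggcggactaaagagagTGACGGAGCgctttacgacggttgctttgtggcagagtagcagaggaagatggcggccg
Psmb9: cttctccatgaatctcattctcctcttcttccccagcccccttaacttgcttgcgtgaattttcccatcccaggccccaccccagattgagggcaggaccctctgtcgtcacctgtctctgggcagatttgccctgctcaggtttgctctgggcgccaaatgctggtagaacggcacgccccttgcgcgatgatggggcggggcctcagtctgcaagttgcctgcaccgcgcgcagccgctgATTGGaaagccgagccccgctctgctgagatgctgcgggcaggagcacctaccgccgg
Psmd12: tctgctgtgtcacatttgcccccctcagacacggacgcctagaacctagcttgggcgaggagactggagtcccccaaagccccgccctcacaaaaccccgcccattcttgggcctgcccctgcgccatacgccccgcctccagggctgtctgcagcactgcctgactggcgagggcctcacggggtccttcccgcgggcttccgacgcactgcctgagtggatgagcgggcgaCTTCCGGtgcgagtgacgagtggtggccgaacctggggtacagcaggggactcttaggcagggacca
The promoter of Psmb6 belongs to a gene at 744 per kb and that of Psmb9 to a gene at 1.57 per kb. A relation of the motifs to the level was not tested.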

How the data were processed

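Single-end reads of 75 bases were trimmed by the authors (Trimmomatic), mapped (TopHat2) to an NCBI build of the mouse genome older than GRCm38, and counted (HTSeq). Whether HTSeq used the strand, and how transcript rows were joined to symbols, are not given in the sources used here. In its default mode HTSeq gives no count to a read that falls in several features. The signal used here is the mean normalized count deposited by the authors for each gene, the mean over all libraries of counts divided by the size factors of DESeq2 1.22.2 (R 3.5.1).

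The remaining columns of that table hold the authors' own comparison of Spaceflight with Ground control (log2 fold-changes, their standard errors, statistics and p-values) and were not used, and neither was their table of genes past the threshold. The 2 count tables hold 16 columns each, named with laboratory codes that match no sample's labels, so all 32 columns were left out. The planned quasi-likelihood test in edgeR therefore could not be run, and no difference between the 8 Spaceflight and 8 Ground control libraries is reported. Only the symbols and transcript identifiers of the larger count table were read, to count identifiers per symbol.

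Lengths came from GENCODE M21 transcripts, matched to 23076 genes (89.1%), of which 20840 by symbol and 2236 by an older symbol. Stretches of 75 bases and exon overlaps came from the same transcripts, and promoters from RefSeq GRCm38.p6. Since the builds differ, coordinates of the reference were not set against the authors' alignments. The transcript step was tested on simulated sequences. Described are the members with a mean normalized count of at least 10, the highest and lowest member of each part, the catalytic pairs and the listed pathway genes. Values of some listed genes are not reported here. The 4 genes with 2 identifiers were singled out after their values were seen. The members and lists were chosen with earlier results of these data known. A count of 25 symbols, changed to dates by a spreadsheet, had no identifier. Python 3.11.15, numpy 2.4.6, pandas 2.3.3 and matplotlib 3.10.9 were used.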

Additional observations from a re-analysis of the deposited data

How the results depend on the processing

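The 5 ratios of part medians and the ratio of the summed immunoproteasome subunits to their partners were recomputed under up to 7 alternatives, of which the length of the listed transcript and the restriction to genes with 1 identifier were added after seeing the data. Of these values, 33 stayed on the same side of 1 and within 1.5-fold, 3 moved further and 5 crossed 1. The base stood at 1.12 of the core, and at 0.836 with the coding length and 0.732 with Psmd4 counted with the lid and the base chaperones counted with the base. The lid stood at 0.980 of the core, and at 1.14 without division by length and 1.01 with Psmd4 counted with it. The base chaperones stood at 0.193 of the core, and at 0.457 without division by length and 0.513 with the median transcript length. The activators stood at 0.318, and at 0.801 without division by length and 1.25 with the median transcript length. The cause of these shifts was not tested beyond the change of length or of members itself. The core assembly factors (0.207 to 0.303 of the core) and the sum of the immunoproteasome subunits over their partners (0.0238 to 0.0409) moved by less than 1.5-fold in all alternatives that were run.

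No paired analysis was possible because the count columns carry neither an animal number nor a group. For the same reason the alternatives in normalization, test, filter, threshold and replicate left out were not run. The counts per library were not used here, so how far depth and spread limit each value was not analysed.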
